A study of Oryza sativa with 4 samples.

Results

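The genes described here are genes of the photosynthetic electron transport chain that were listed as different between young panicles of OX*OsAFB6* rice and of control rice. They were chosen by the words of the gene description in the deposited table (photosystem, chlorophyll, oxygen-evolving, cytochrome b6, rubisco, plastocyanin, light-harvesting or photosynth), with 1 gene left out. The rule gave 8 of 287 listed genes. Only 240 of the 287 listed genes have a description, so genes without one could not be found. In each of the 8 genes the expression level was lower in OX*OsAFB6* panicles, at between 26.9% and 38.9% of the control level, and 79.8% of all listed genes were lower. Because the authors listed only genes they called as different, that the 8 genes differ is a property of the list, and the values below describe by how much and in which libraries.

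In plants, light energy is collected by antenna proteins that bind chlorophyll and is passed to photosystem II and photosystem I in the thylakoid membrane of the chloroplast. Photosystem II splits water at its oxygen-evolving complex, the cytochrome b6f complex carries the electrons onward, and photosystem I uses light again to reduce ferredoxin. Many subunits of these complexes are encoded in the nucleus and are expressed strongly in green leaves, whereas meristem cells hold undeveloped proplastids.

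The tissue was the main-culm panicle at the transition to the reproductive stage, collected at a length below 1 mm. For each genotype, panicles of 80 plants made up 2 pools, and 1 library was sequenced from each pool. OX*OsAFB6* is a single transgenic line in the japonica variety Zhonghua 11, made with a construct that expresses *CCT05* from a constitutive viral promoter, in which the insertion lies upstream of the auxin receptor gene *OsAFB6* and raises its expression. The control plants are called negative plants of the same transgenic event in the sample labels, and plants regenerated from calli without foreign DNA in the methods of the paper, and both genotypes had therefore passed through tissue culture. The pools of a genotype came from 1 collection. The paper places the collection of both genotypes in the same summer, without a date for each, and the panicles were matched by length. The paper also reports delayed heading in OX*OsAFB6*. Plant age and date of collection may thus have differed between the genotypes, and they cannot be told apart from genotype. The deposited values are 1 mean per genotype, and the reads of the 4 libraries were recovered from these means. Values of libraries are normalised read counts, that is, reads divided by the size factor of the library. The size factors were 1.01 and 1.14 for the OX*OsAFB6* libraries and 0.887 and 0.977 for the control libraries, and the values of a genotype are given in this order throughout. Which library is replicate 1 is not known.

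The only listed gene described as an auxin signaling F-box was OS02G0178100, whose identifier names chromosome 2 but whose description names a locus on chromosome 3. Its mean was 49357 in OX*OsAFB6* and 15747 in the control plants, 3.13-fold higher in OX*OsAFB6*. The paper places *CCT05*, the gene of the construct, on chromosome 2 and *OsAFB6* on chromosome 3. It reports no detectable overexpression of *CCT05* in this line and raised *OsAFB6* expression in its seedlings. Which of them this row stands for could not be settled from the table. The list also holds 6 genes taken here by name as young panicle markers, namely *LAX*, *MADS34*, *FL*, *SPL8*, *CYP78A11* and *WOX2*. Whether each of the 6 genes marks this tissue was not tested. All 6 were read in every library, with at least 60 reads. They were picked by name among genes called as different, so their reads are not an independent check of the tissue label. No listed gene was described as a ribulose bisphosphate carboxylase subunit, a carbonic anhydrase or a glycolate oxidase, which are abundant in green leaves, and the list says nothing of genes that did not pass the authors' threshold.

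The 8 genes fall into 4 groups of 2 by their description. For the oxygen-evolving proteins of photosystem II, OS01G0501800 on chromosome 1 had normalised read counts of 142 and 131 in OX*OsAFB6* and of 481 and 476 in the control plants. This gene is described as a putative oxygen evolving protein of photosystem II of the kind that stabilises the manganese cluster. The libraries of each genotype lay close together, and the lower control library was 3.36-fold above the higher OX*OsAFB6* library, the widest gap of the 8 genes. The mean was 136 in OX*OsAFB6* and 479 in the control plants, a log2 ratio of -1.81 with a 95% counting interval of -2.01 to -1.62. OS07G0141400 on chromosome 7, described as oxygen-evolving complex protein 2, which is known as PsbP, had 566 and 697 in OX*OsAFB6* and 1487 and 1814 in the control plants. In this gene the library of larger size factor was the higher one in both genotypes. Its mean was 632 against 1650, a log2 ratio of -1.39 (95% counting interval -1.48 to -1.29). Counting intervals cover the error of counting reads only, and reads amplified by PCR are not independent molecules.

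For photosystem I, *PSAH* (OS05G0560000, chromosome 5) had normalised read counts of 83.2 and 91.1 in OX*OsAFB6* and of 323 and 244 in the control plants. *PSAH* encodes reaction center subunit VI, which in Arabidopsis is known as a docking site of the mobile antenna on photosystem I. Its mean was 87.1 against 284, a log2 ratio of -1.70 (95% counting interval -1.94 to -1.46). OS07G0148900 on chromosome 7, described as a photosystem I protein-like protein, had 71.3 and 105 in OX*OsAFB6* and 382 and 274 in the control plants. It had the largest log2 ratio in size of the 8 genes, -1.90 (means of 88.2 and 328), and the libraries of each genotype also differed most in it, by 1.47-fold in OX*OsAFB6* and by 1.39-fold in the control plants. Both OX*OsAFB6* libraries were below both control libraries in each of these genes.

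For the chlorophyll-binding antenna, OS07G0577600 on chromosome 7, described as a putative photosystem I antenna protein, had normalised read counts of 232 and 272 in OX*OsAFB6* and of 995 and 833 in the control plants. Its mean was 252 against 914, a log2 ratio of -1.86 (95% counting interval -2.00 to -1.72). OS02G0197600 on chromosome 2, described as a chlorophyll a/b-binding protein of type III, rested on the fewest reads, 59 and 65 in OX*OsAFB6* and 172 and 160 in the control plants. These gave normalised read counts of 58.4 and 56.9 against 194 and 164. Its log2 ratio was -1.63, and its 95% counting interval of -1.93 to -1.33 was the widest of the 8 genes.

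For the cytochrome b6f complex, *PETC* (OS07G0556200, chromosome 7) had normalised read counts of 452 and 482 in OX*OsAFB6* and of 1513 and 1246 in the control plants. *PETC* encodes the Rieske iron-sulfur protein, which takes electrons from plastoquinol. Its mean was 467 against 1379, a log2 ratio of -1.56 (95% counting interval -1.67 to -1.46). OS03G0765900 on chromosome 3, described as a putative cytochrome b6f complex subunit, had 656 and 876 in OX*OsAFB6* and 2236 and 1707 in the control plants. It showed the smallest decrease, with means of 766 and 1971 and a log2 ratio of -1.36, and also the narrowest gap, since its lower control library was 1.95-fold above its higher OX*OsAFB6* library.

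**Figure D1:**
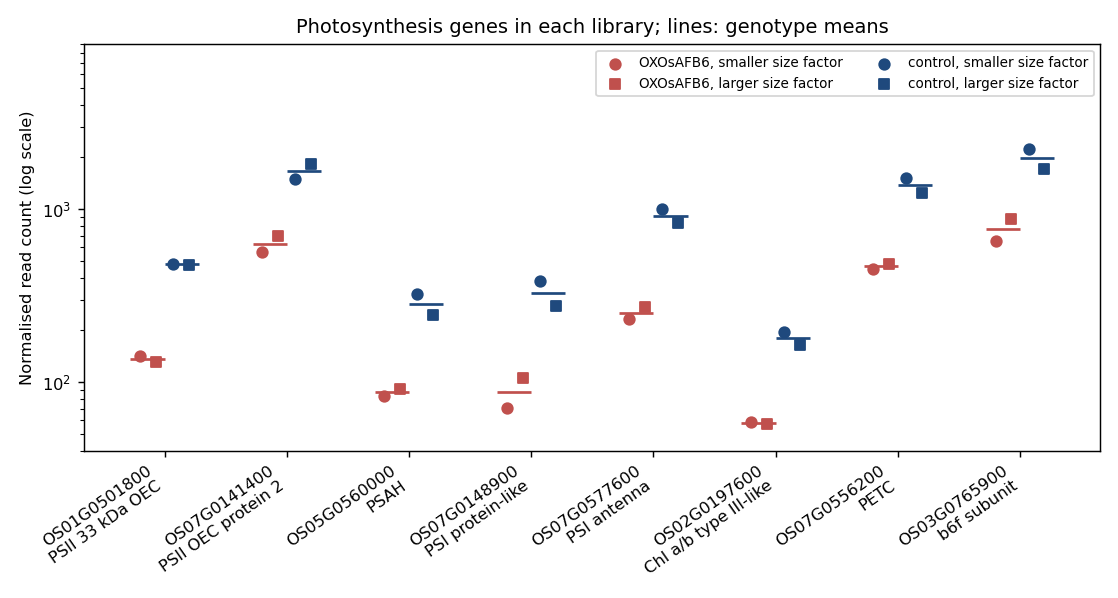
Normalised read count (log scale) of the 8 photosynthesis genes in the 4 libraries, with red (OX*OsAFB6*) and blue (control) points for libraries and short lines for the mean of each genotype. In each gene both OX*OsAFB6* libraries sit below both control libraries, with a gap between the nearest libraries of 1.95-fold to 3.36-fold.

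Of all 287 listed genes, 229 (79.8%) had a lower mean in OX*OsAFB6*, against 8 of the 8 photosynthesis genes. Both OX*OsAFB6* libraries lay below both control libraries in 8 of 8 photosynthesis genes and in 79.9% of the 284 listed genes whose reads were recovered in every library. Counted in either direction, the genotypes did not overlap in 100% of these 284 genes, as the list was selected for the difference. A decrease of at least 3-fold was found in 5 of the 8 genes and in 57.8% of all listed genes. The median log2 ratio of the photosynthesis genes was -1.67, a 3.18-fold decrease. It was -1.84 over the 229 lower genes and -1.71 over all 287 listed genes, with genes at no more than 3 reads in each OX*OsAFB6* library set to the bound of 3 reads. The median decrease of the photosynthesis genes was thus smaller than that of the lower genes. The median over all 287 listed genes includes those that were higher. Of the other 220 lower genes, 95 had a log2 ratio within the range of the photosynthesis genes, 19 were closer to 0 and 106 were past all 8. Ranked from the smallest decrease to the largest among the 229 lower genes, the 8 genes stood between rank 20 and rank 123. No test of this contrast was run, because the list was selected for it and 2 libraries against 2 cannot give a p below 0.333 in an exact permutation test.

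**Figure D2:**
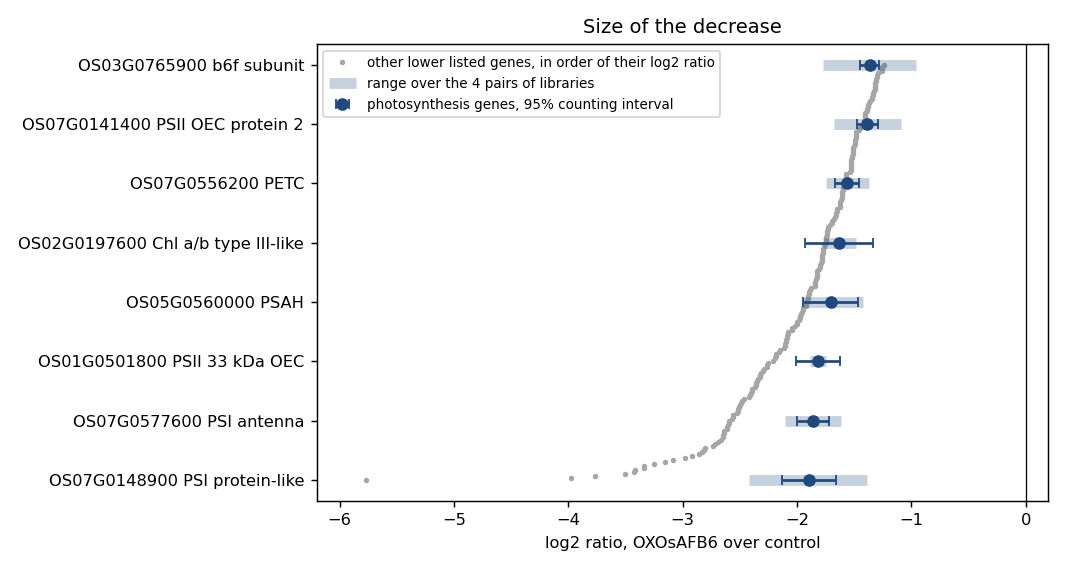
log2 ratio of OX*OsAFB6* over control for the 8 photosynthesis genes in order of size, with points for the ratio of means, thin bars for the 95% counting interval and thick pale bars for the range over the 4 pairs of 1 OX*OsAFB6* and 1 control library. Grey points are the other 206 lower genes above 3 reads in an OX*OsAFB6* library, spread evenly along the vertical axis in the order of their log2 ratio. The 8 genes lie between -1.36 and -1.90 and the pale bars of neighbours overlap.

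Summed over the 8 genes, the normalised read count was 2261 and 2711 in OX*OsAFB6* and 7612 and 6758 in the control plants, a log2 ratio of -1.53. The sum of the photosystem I genes was 154 and 196 against 706 and 518, a log2 ratio of -1.80, and that of the antenna genes was 290 and 329 against 1189 and 997, a log2 ratio of -1.82. The sum of the oxygen-evolving proteins was 708 and 828 against 1968 and 2290, a log2 ratio of -1.47. The cytochrome b6f genes gave 1108 and 1358 against 3749 and 2952, a log2 ratio of -1.44. When libraries were left out singly, the log2 ratio of the antenna genes ranged from -1.94 to -1.69, and that of the photosystem I genes from -2.01 to -1.56. The range was -1.59 to -1.36 for the oxygen-evolving proteins and -1.60 to -1.26 for the cytochrome b6f genes. The range of the antenna genes thus lay below those of the oxygen-evolving proteins and of cytochrome b6f, whereas the range of photosystem I met both. The gene with more reads weighs most in each sum, and genes of 1 complex also differed. Among the oxygen-evolving proteins, the range was -1.87 to -1.76 for OS01G0501800 and -1.54 to -1.23 for OS07G0141400. In the antenna it was -1.98 to -1.72 for OS07G0577600 and -1.75 to -1.51 for OS02G0197600. The order of the sums thus does not hold for every gene. Each complex is represented by 2 listed genes, and the differences between complexes were not tested.

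The ratio of 2 genes within a library does not depend on the size factor, and it was used to describe how the 8 genes changed relative to each other. Since the values are not divided by gene length, only the change of such a ratio between the genotypes is read. Of the 28 pairs of photosynthesis genes, 13 (46.4%) had ratios that did not overlap between the genotypes, against 51.6% of 21945 pairs of lower listed genes. The 8 genes are among these lower genes, and the 2 shares were near each other. With 2 libraries against 2, a ratio that does not change still fails to overlap with a probability of 0.333. Pairs also share genes, and whether the 8 genes changed by different amounts was not tested. Neighbours in the order of the log2 ratio, which are by that sorting the pairs with the smallest change, overlapped in 7 of 7 pairs. A wide separation against its spread was that of OS03G0765900 over OS07G0148900, a pair chosen after its values were seen. The log2 ratio of this pair was 3.20 and 3.06 in OX*OsAFB6* and 2.55 and 2.64 in the control plants, a change of 0.54 with a pooled SD of 0.084 between libraries.

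The libraries of a genotype also differed in these genes. In the control plants, 7 of the 8 genes were higher in the library of smaller size factor, with OS07G0141400 as the exception, and 6 of the 8 differences exceeded 2 counting standard errors. Among listed genes with reads in every library, 51.4% were higher in that control library, and among the lower listed genes 61.2% were. The median log2 difference between the control libraries was 0.27 for the photosynthesis genes and 0.01 for the listed genes. In OX*OsAFB6*, 6 of the 8 genes were lower in the library of smaller size factor, as were 60.8% of the lower listed genes. The other 2 were higher in that library, as were 38.0% of all listed genes with reads in every library. In OX*OsAFB6*, 3 of the 8 differences exceeded 2 counting standard errors. The share of listed genes past 2 counting standard errors is not given, so these counts in either genotype are not set against the list. The absolute log2 difference had a median of 0.28 between the control libraries and of 0.18 between the OX*OsAFB6* libraries, against 0.32 and 0.28 over the listed genes.

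**Figure D3:**
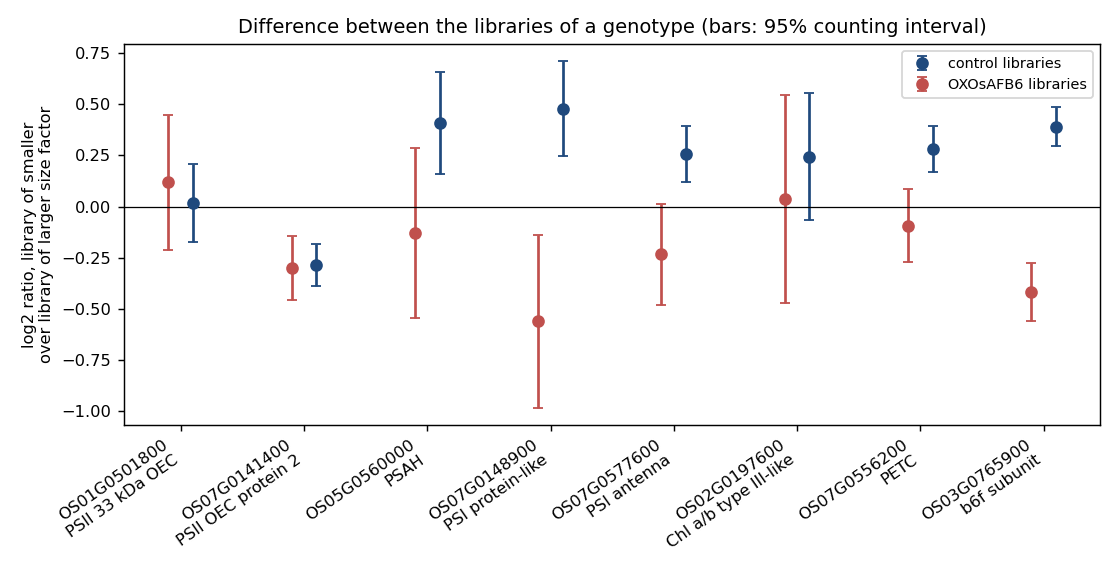
log2 ratio of the library of smaller size factor over the library of larger size factor within each genotype, for the 8 photosynthesis genes, with bars for the 95% counting interval. Blue points (control) lie above 0 in 7 of 8 genes and red points (OX*OsAFB6*) lie below 0 in 6 of 8 genes.

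The 6 genes taken as young panicle markers, picked by name from the list with earlier results known, moved in the opposite direction. Over the whole list, 58 of 287 genes were higher in OX*OsAFB6*. Each of the 6 was higher, a count that says nothing of such genes outside the list. Their log2 ratios ran from 1.33 for *FL*, a homolog of the floral regulator LEAFY, to 1.83 for *CYP78A11*. The latter is a cytochrome P450 gene known to set the pace of leaf initiation. Their summed normalised read count was 10052 and 10427 in OX*OsAFB6* and 2878 and 4703 in the control plants. Most of each sum came from *FL*, with 6552 and 7140 in OX*OsAFB6* and 2081 and 3370 in the control plants. The lowest of the 4 sums was in the control library where the photosynthesis genes were highest. In OX*OsAFB6* the photosynthesis sum and the marker sum were higher in the library of larger size factor, and 3 of the 6 markers were lower in the library of smaller size factor. All 6 were lower in that control library than in the other one, by 1.02-fold to 2.54-fold, as were 87.7% of the 57 higher listed genes with reads in every library. Without that control library, the log2 ratio of *WOX2*, a homeobox gene, was 1.15 and that of *SPL8* was 1.00, and without the other control library they were 2.49 and 2.25. The summed photosynthesis genes were 2.49-fold higher in the lower control library than in the higher OX*OsAFB6* library. In bulk tissue, fewer cells of a green type and less RNA per cell cannot be told apart, and the part that the makeup of the panicle samples had in the decrease of the photosynthesis genes was not tested.

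**Figure D4:**
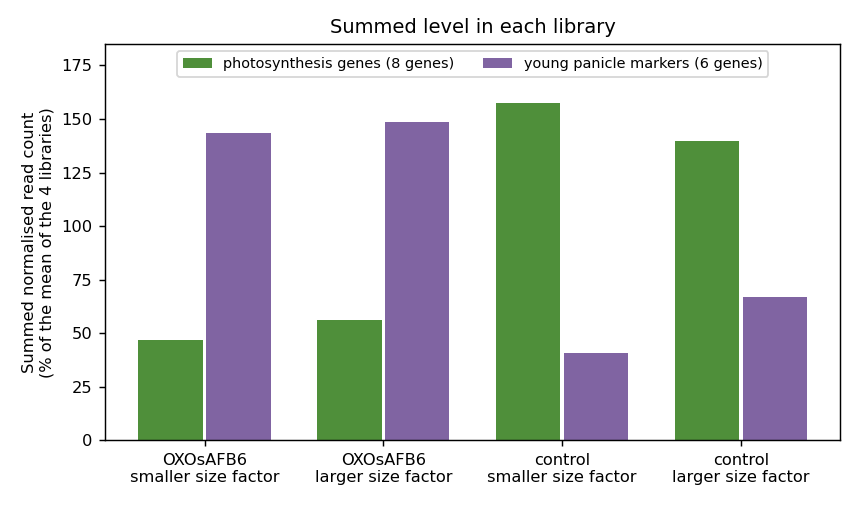
Summed normalised read count of the 8 photosynthesis genes (green) and of the 6 young panicle markers (purple) in each library, as a percentage of the mean of the 4 libraries. Most of the marker sum comes from *FL*. The photosynthesis genes are at 46.8% and 56.1% in OX*OsAFB6* and at 157% and 139.8% in the control plants, and the markers are at 143% and 149% in OX*OsAFB6* and at 41.0% and 67.0% in the control plants.

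Other genes described with chloroplast or plastid did not share 1 direction, and 79.8% of all listed genes were lower. Of 4 further listed genes described with these words, 2 were lower and 2 were higher in OX*OsAFB6*. The lower ones were OS03G0856500, a plastid-specific protein of the 30S ribosome, and OS07G0190000, a probable 1-deoxy-D-xylulose-5-phosphate synthase, the entry enzyme of plastid isoprenoid synthesis. OS03G0856500 had 616 and 999.6 in OX*OsAFB6* and 3834 and 3098 in the control plants, a log2 ratio of -2.10. OS07G0190000 had 51.5 and 260 in OX*OsAFB6* and 521 and 549.7 in the control plants, so its log2 ratio of -1.78 became -1.04 without the lower OX*OsAFB6* library and -3.38 without the higher one. The higher genes were OS08G0199400, an acyl-carrier-protein desaturase of fatty acid synthesis, with 163 and 186 against 45.1 and 49.1, and OS02G0828900, a putative DNA-binding protein. OS02G0828900 had 2416 and 2378 in OX*OsAFB6* and 537 and 1258 in the control plants, and its log2 ratio of 1.42 became 0.93 without the lower control library and 2.16 without the higher one.

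All 3 listed genes of plastid isoprenoid and pigment synthesis were lower in OX*OsAFB6*, 1 of which is OS07G0190000. OS07G0580900, a putative geranylgeranyl diphosphate synthase, whose product is a precursor of carotenoids and of the tail of chlorophyll, had 341 and 494 in OX*OsAFB6* and 1002 and 1114 in the control plants, a log2 ratio of -1.34. OS01G0581300, a putative lycopene epsilon-cyclase of the lutein branch of carotenoid synthesis, had 24 and 27 reads in OX*OsAFB6* and 90 and 83 reads in the control plants, a log2 ratio of -1.97. With 79.8% of all listed genes lower, 3 of 3 is near the share of the list. Searches by words reach only the 240 of 287 listed genes that have a description. Words for carbon fixation, photorespiration, chlorophyll synthesis and other thylakoid proteins (ribulose, phosphoribulokinase, sedoheptulose, carbonic anhydrase, glycolate oxidase, protochlorophyllide, chelatase, ferredoxin, thylakoid and ATP synthase) found 0 listed genes.

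The 5 listed genes whose profile over the 4 libraries was closest to the mean profile of the photosynthesis genes were not described as plastid proteins. Closeness was the Euclidean distance between log2 values centred on their mean, over 255 other genes above 3 reads in every library. The closest was OS05G0125500, a mitochondrial isovaleryl-CoA dehydrogenase of leucine breakdown, at a distance of 0.041, with 375 and 439 in OX*OsAFB6* and 1366 and 1143 in the control plants. OS02G0525600, OS11G0180000, OS01G0349600 and OS12G0466200 followed at distances of 0.059 to 0.109. OS11G0180000 is described as a disease resistance-responsive family protein, and the other genes of these have no description that names a function. The photosynthesis genes themselves lay at 0.125 (*PETC*) to 0.453 (OS07G0141400) from their own mean profile. The 5 genes were picked as the closest of 255, whereas the photosynthesis genes were not picked by distance, so these distances are not compared. A profile near the mean profile of the photosynthesis genes was found in OS05G0125500 and OS11G0180000, whose descriptions name other functions. By identifier, 4 of the 8 photosynthesis genes lie on chromosome 7, which holds 24 (8.45%) of the 284 listed genes with a chromosome in the identifier.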

How the data were processed

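RNA of young panicles was sequenced from 2 OX*OsAFB6* and 2 control libraries. The submitters' processing notes name Bowtie 0.12.2 and the builds IRGSP-1.0 and mm8, a mouse build, with no role. The counter, annotation and test are not given in the sources used here. The authors deposited 1 signal value per gene and genotype, in which the reads of 2 libraries were each scaled by a size factor and then averaged. It is not RPKM as the header says, since 1 read of a library added the same amount in every gene. Only genes that the authors called as different are listed. Their log2 fold change, p-value and adjusted p-value were not used.

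Reads of each library were recovered as the only pair of whole numbers that gave the printed mean within its rounding and 4 standard errors of the value of 1 read, with Python 3.11.15, numpy 2.4.6 and pandas 2.3.3. This succeeded in both genotypes for 284 of 287 genes, the 8 photosynthesis genes included, 0 means had no pair, and 46.4% of recovered reads were odd. The geometric mean of the size factors was 1.00. The recovery takes the smallest mean as 1 read of 1 library. It was tested on simulated data built with such a mean, so this assumption was not tested. Total depth is unknown, so precision is given only for single genes, as 95% intervals from the read counts (59 to 1984 reads in a library).

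log2 ratios were recomputed from the means. The genes named are the photosynthesis genes, lists of description words and gene names, the 5 closest profiles and the row described as an auxin signaling F-box. Members and lists were chosen with earlier results of these data known. The gene left out is not reported here. RefSeq (ASM3414082v1) matched 0 of the 8 identifiers and 2 gene names, *PETC* and *PSAH*, on the same chromosomes, and no sequence or coordinates were used. Alternatives were pseudocounts of 1 and 10, unscaled reads, each library or gene left out, a minimum mean of 100, other description rules and a wider rounding tolerance. Leaving libraries out for genes other than the 8 was chosen after seeing the data.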

Additional observations from a re-analysis of the deposited data

How the results depend on the processing

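Of 147 alternative values, 130 were taken as the same, 17 as moved and 0 as reversed. The spread between libraries was the measure for log2 ratios, whereas counts of genes or pairs have no such spread. The numbers of same, moved and reversed values were in part set in advance. Leaving out 1 of the 2 libraries of a genotype can move a log2 ratio only by part of the difference between them. It also cannot reverse the direction of a listed gene whose genotypes do not overlap. With unscaled reads, the log2 ratio of all listed genes shifted by a median of 0.21, the median of the photosynthesis genes was -1.45, and the log2 ratios of the sums were -1.31 for all 8 genes, -1.26 for the oxygen-evolving proteins and -1.60 for the antenna. Without scaling, 0 of the 8 genes were higher in the OX*OsAFB6* library of smaller size factor. With a mean of at least 100 in both genotypes 5 of 5 genes were lower, and with Swiss-Prot descriptions 2 of 2 were, in both cases because fewer genes were counted. Adding descriptions with chloroplast or plastid moved the summed log2 ratio to -1.01. When libraries were left out singly, 8 of 8 genes stayed lower, the median log2 ratio ranged from -1.79 to -1.51, and 19 to 23 pairs of genes did not overlap, since a genotype with 1 library has no spread to overlap with. No paired analysis was possible because the 2 deposited columns are means and carry no replicate number.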

Other observations

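Listed genes of carbon use and light perception were described by the same lists of words. OS02G0625300, a phosphoenolpyruvate carboxylase kinase, which activates the carboxylase by phosphorylation, had normalised read counts of 8905 and 6499 in OX*OsAFB6* and of 21048 and 17937 in the control plants, a log2 ratio of -1.34. OS03G0351300, of the glycosyl hydrolase family of the beta-amylases, had 4088 and 4060 against 10040 and 12245, a log2 ratio of -1.45. OS07G0630800, a putative malate dehydrogenase, rested on 9 and 15 reads against 50 and 58 reads, and *AMY1.3*, an alpha-amylase gene, on 2 and 4 reads against 42 and 38 reads. *TPP3* (OS07G0624600), a probable trehalose-phosphate phosphatase, was the only one of these 5 genes that was higher in OX*OsAFB6*, with 223 and 273 against 32.7 and 50.2, a log2 ratio of 2.58. The single listed gene of light perception by these words, OS01G0186200, a PAS/LOV protein of the family of flavin-binding blue light sensors, had 531 and 583 against 1562 and 1549.9, a log2 ratio of -1.48. In each of these 6 genes the libraries of the genotypes did not overlap, as in all 284 listed genes with recovered reads.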
